A study of Mus musculus with 12 samples.

Results

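The 10 genes described here build and control the replicative helicase of mouse cells: Mcm2, Mcm3, Mcm4, Mcm5, Mcm6, Mcm7, Mcm10, Cdc6, Cdt1 and Gmnn. They were taken by name, for their known role in origin licensing, from a deposited count table of 23337 gene symbols, and all 10 were among the 12406 genes with enough counts to be tested. The table holds 12 RNA sequencing libraries of NU1, normal cells of the mouse urothelium that became immortal on their own during passaging. All cells carried a lentiviral short hairpin RNA. The control hairpin, shNT, stands for the WT genotype of the labels, and the hairpin sh4, against the cohesin gene Stag2, for the Stag2-KD genotype. Each hairpin was studied in proliferating cells and in quiescent cells, so there were 4 groups of 3 libraries, called proliferating control, proliferating knockdown, quiescent control and quiescent knockdown below. Proliferating cells grew in complete medium with serum, EGF at 5 ng/ml and calcium chloride at 0.3 mM. Quiescent cells were kept in the same medium to confluence, then received 1 µM rosiglitazone, an activator of PPAR gamma, and 0.5 µM erlotinib, an inhibitor of the EGF receptor kinase, and were labelled day 7. Every group had 1 library from each of experiments 5, 7 and 9. A single Stag2 hairpin and a single cell line were used, so an effect of this hairpin on other transcripts cannot be told apart from loss of Stag2.

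Origin licensing is the step that prepares DNA for replication before S phase. The origin recognition complex marks the DNA, Cdc6 and Cdt1 join it, and together they load a ring made of the subunits Mcm2 to Mcm7 around the double helix, where it waits as an inactive helicase. Geminin, the product of Gmnn, binds Cdt1 and blocks a repeat of loading in the same cycle, while Mcm10 acts later, when the loaded ring is activated. Cells that leave the cycle lose licensed origins and switch off many of these genes, and the DREAM complex, which holds E2F4 and the MuvB core, is a known repressor of such genes in quiescence.

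The promoters of these genes are known for E2F sites, and the CHR element is a second kind of site bound through the MuvB core. RefSeq promoters of GRCm38.p6, from 250 bases before to 50 after the transcript start, were found for 8 of the 10 members, in 9 entries because Mcm7 has more than 1 start. Any member entry on 1 chromosome that carries none of the 10 genes was set aside. They were searched on both strands for E2F letters (TTTCCCGC, TTTCGCGC, TTTGCCGC or TTTGGCGC), CHR letters (TTTGAA or TTCGAA) and the CCAAT box. The E2F letters were in 6 of the 8 members, against 2.26% of all 32851 promoters of this length. Such shares of all promoters count single entries, while a member counted if any of its entries matched. CHR letters were in 2 members, Mcm2 and Mcm7, against 19.2% of all promoters, and CCAAT in 6 members against 37.4%. The windows below show 1 match for each of the 7 members with an E2F or CHR match, because E2F letters were in most of the members with an entry and the rule did not use them; for Mcm2, which has none, its CHR match is shown instead. Each is read 5′ to 3′ on the strand of its gene, with the match in capitals, and GCGGGAAA is TTTCCCGC read on the other strand.
Mcm2, CHR letters, chr6:88898834-88898861, minus strand: gggctcagcctTTTGAAagctgtgggcg
Mcm3, E2F letters, chr1:20820275-20820304, minus strand: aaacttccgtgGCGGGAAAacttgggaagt
Mcm5, E2F letters, chr8:75109345-75109374, plus strand: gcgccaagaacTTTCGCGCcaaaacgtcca
Mcm6, E2F letters, chr1:128359734-128359763, minus strand: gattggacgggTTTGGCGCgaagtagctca
Mcm7, E2F letters, chr5:138171849-138171878, minus strand: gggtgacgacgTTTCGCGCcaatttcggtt
Cdc6, E2F letters, chr11:98908002-98908031, plus strand: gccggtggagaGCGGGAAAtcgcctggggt
Cdt1, E2F letters, chr8:122568036-122568064, plus strand: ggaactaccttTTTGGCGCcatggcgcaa
The Mcm5 match overlaps a TTTGGCGC match on the other strand, and Mcm6 holds such an overlapping pair at another place in its promoter. The Mcm10 promoter held CCAAT and none of the E2F or CHR letters in this window. These matches describe letters only; no binding was measured here.

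Library totals ran from 14524429 to 21987539 counts. Levels are given as CPM, counts scaled to a common library total after TMM, and the error of a mean is the SD over 3 libraries. The targeted gene followed the labels: Stag2 stood at 132 CPM ± 17.4 (SD, n = 3) in proliferating control, 27.6 CPM ± 4.96 (SD, n = 3) in proliferating knockdown, 120.5 CPM ± 11.3 (SD, n = 3) in quiescent control and 12.1 CPM ± 2.95 (SD, n = 3) in quiescent knockdown. Of 18 urothelial markers 16 reached 1 CPM in some library, led by Krt8, Krt18, Krt7 and Krt19, while the basal regulator Trp63 was at 0 throughout and Upk3a did not exceed 0.0453 CPM. The summed urothelial level was 12320 to 17820 CPM in proliferating control, 14430 to 16650 CPM in proliferating knockdown, 12380 to 19420 CPM in quiescent control and 21490 to 23410 CPM in quiescent knockdown. Fibroblast, smooth muscle and endothelial markers summed to at most 2.27, 0.716 and 0.238 CPM in any library, with Col1a2, Col3a1 and Lum at 0. The 5 immune markers summed to 15.5 to 33.2 CPM in proliferating control, 26.2 to 55.4 CPM in proliferating knockdown, 39.6 to 61.8 CPM in quiescent control and 110.2 to 169.5 CPM in quiescent knockdown. Csf1r carried this sum, at a mean of 42.0 CPM in quiescent control and 125 CPM in quiescent knockdown, while Ptprc stayed at or below 0.408 CPM and Cd3e at 0.

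All 10 members fell with quiescence in control cells. Under edgeR's quasi-likelihood test with Benjamini-Hochberg adjustment over all genes, 10 of 10 were lower at an adjusted p under 0.05, where 11.7% of the genes tested were called lower. Their log2 fold changes ran from -4.64 to -1.77 with a median of -3.12, against a median of 0.00 over all genes tested, and the largest adjusted p was 0.00445. In each gene every quiescent control library lay below every proliferating control library. The share of all genes tested with such a separation was not counted. Confluence, both agents and time came together in the quiescent groups, so their shares cannot be told apart, and in these bulk samples fewer cells with the transcript cannot be told apart from less RNA per cell.

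**Figure D1:**
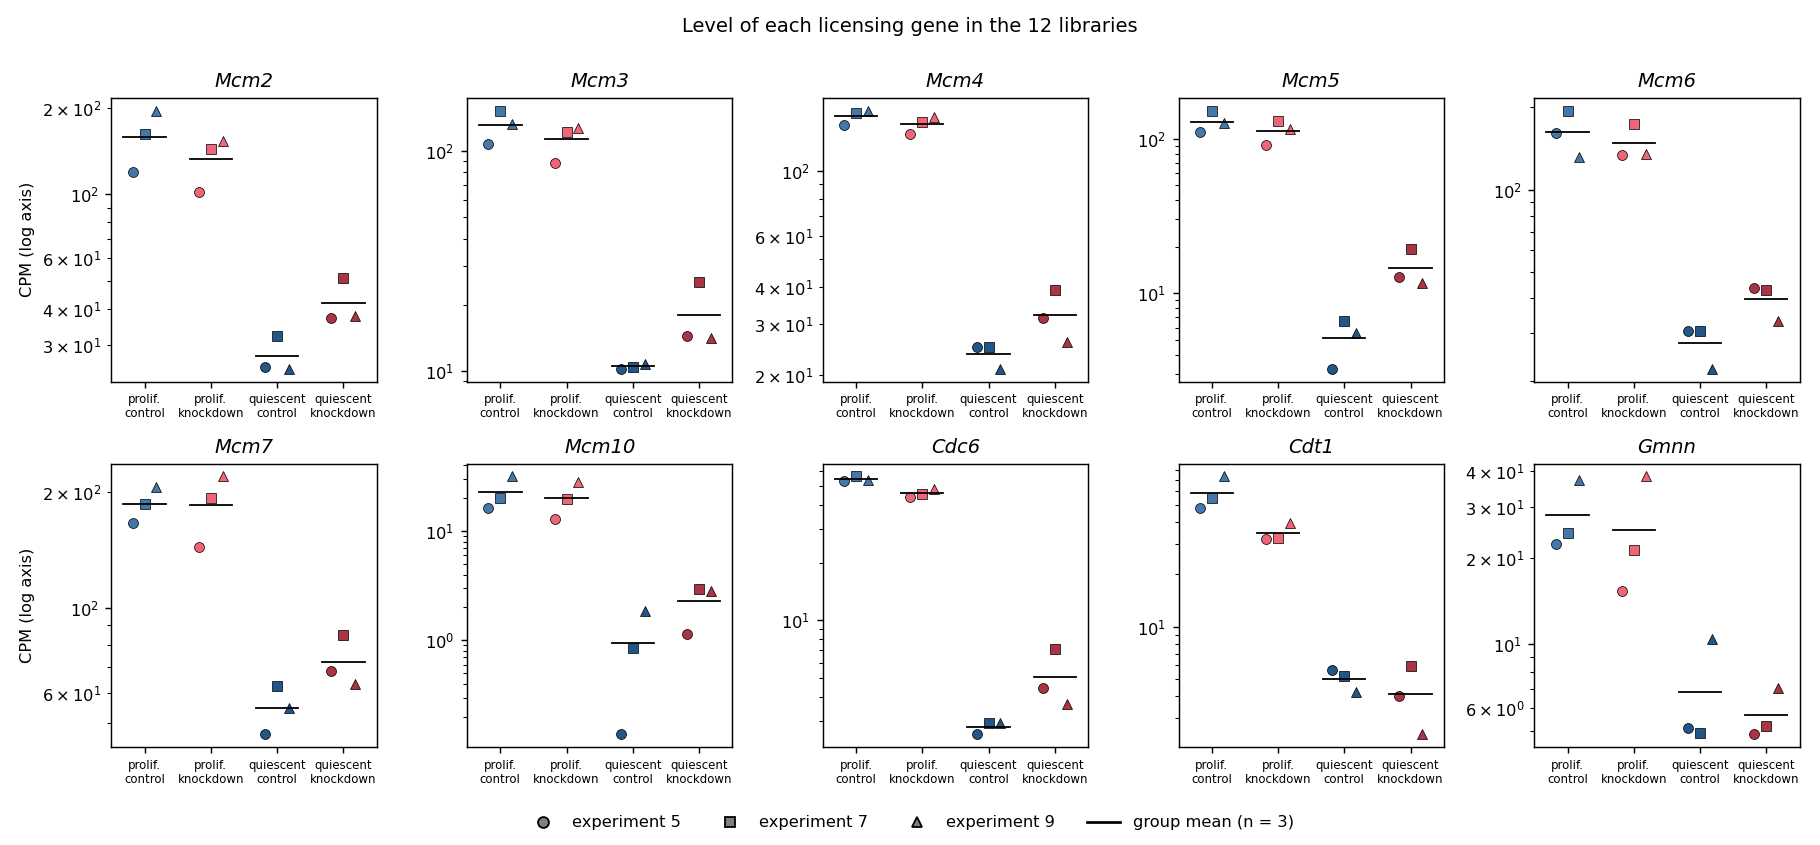
CPM of each of the 10 genes (log axis, a separate scale for each panel) in the 12 libraries, by group, with a symbol for each experiment and a line at the group mean (n = 3). In every panel the quiescent libraries of a hairpin lie below the proliferating libraries of the same hairpin.

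Mcm5 fell the most of the ring subunits. It is 1 of the 6 subunits and forms, with Mcm2, the gate through which the ring is thought to open, and its gene lies at chr8:75109569-75128439 on the plus strand (GRCm38). In experiments 5, 7 and 9 its level was 110, 151 and 126 CPM in proliferating control, and 3.24, 6.61 and 5.55 CPM in quiescent control. The log2 fold change was -4.64 (edgeR adjusted p 8.9e-06, SE 0.29), 25.0-fold lower, so that 3.91% ± 0.832 (SD, n = 3) of the proliferating level remained.

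Mcm3 (chr1:20802968-20820312, minus strand) neighbours Mcm5 in the ring. Its proliferating control levels were 108, 153 and 133 CPM, and its quiescent control levels were 10.2, 10.5 and 10.8 CPM, the most even of the quiescent subunit values. It fell by 3.64 on the log2 scale (edgeR adjusted p 1.6e-05, SE 0.25), and 8.15% ± 1.31 (SD, n = 3) remained.

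Mcm4 (chr16:15623897-15637400, minus strand), Mcm6 (chr1:128331590-128359664, minus strand) and Mcm7 (chr5:138164583-138172422, minus strand) form the part of the ring with the strongest helicase activity. Mcm4 went from 143, 158 and 160.3 CPM to 25.0, 25.0 and 21.0 CPM, with a log2 fold change of -2.70 (edgeR adjusted p 6.2e-06, SE 0.15). Mcm6 went from 162, 194 and 131 CPM to 30.3, 30.3 and 22.1 CPM, with a log2 fold change of -2.56 (edgeR adjusted p 3.0e-05, SE 0.20). Mcm7 moved least of the subunits. Its levels were 166, 186 and 206 CPM in proliferating control and 46.7, 62.5 and 54.6 CPM in quiescent control, a log2 fold change of -1.77 (edgeR adjusted p 0.00013, SE 0.18), and 29.4% ± 3.67 (SD, n = 3) remained. Exons of Mcm7 share 321 bases, 10.8% of its exon length, with Ap4m1 and 64 bases with Cops6, both on the opposite strand. The library kit keeps strand, but whether the counting used it is not given in the sources used here, so some Mcm7 counts may belong to these neighbours.

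Mcm2 (chr6:88883474-88898780, minus strand), a subunit that is phosphorylated by the Cdc7 kinase and binds histones, stood at 119.5, 162 and 195 CPM in proliferating control and 25.2, 32.3 and 24.9 CPM in quiescent control. Its log2 fold change was -2.53 (edgeR adjusted p 6.4e-05, SE 0.23), and 17.9% ± 4.51 (SD, n = 3) of the proliferating level remained, near the 17.1% ± 1.59 (SD, n = 3) of Mcm6 and the 15.4% ± 2.16 (SD, n = 3) of Mcm4.

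Of the loading factors, Cdc6 fell further than Cdt1. Cdc6 (chr11:98907801-98923936, plus strand), the ATPase that completes the loader, was tight in both groups, with 53.4, 56.1 and 53.6 CPM in proliferating control and 2.55, 2.94 and 2.92 CPM in quiescent control. This was a log2 fold change of -4.27 (edgeR adjusted p 5.8e-06, SE 0.22), and 5.15% ± 0.34 (SD, n = 3) remained. Cdt1 (chr8:122568015-122573128, plus strand), which escorts the ring to the origin, went from 47.9, 54.8 and 73.0 CPM to 5.66, 5.20 and 4.23 CPM, a log2 fold change of -3.54 (edgeR adjusted p 4.8e-05, SE 0.29).

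Gmnn (chr13:24751845-24761923, minus strand), the inhibitor of Cdt1, fell less than its target. Its levels were 22.4, 24.4 and 37.4 CPM in proliferating control and 5.11, 4.89 and 10.4 CPM in quiescent control, with experiment 9 the highest in both. The log2 fold change was -2.04 (edgeR adjusted p 0.0045, SE 0.39), and 23.6% ± 3.99 (SD, n = 3) remained. Per kb of exon, the ratio of Cdt1 to Gmnn transcript was 1.15 ± 0.0811 (SD, n = 3) in proliferating control and 0.467 ± 0.213 (SD, n = 3) in quiescent control. The quiescent control ratios ran from 0.220 to 0.602, all below the proliferating control range of 1.06 to 1.22. In knockdown cells the ratio was 0.84 ± 0.285 (SD, n = 3) in proliferating and 0.419 ± 0.221 (SD, n = 3) in quiescent libraries. These knockdown groups overlapped, with ranges of 0.559 to 1.13 and 0.186 to 0.624.

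Mcm10 (chr2:4989714-5012791, minus strand), the activation factor, had the lowest quiescent levels of the 10 genes per kb of exon. It went from 16.2, 19.9 and 31.5 CPM in proliferating control to 0.138, 0.857 and 1.85 CPM in quiescent control, a log2 fold change of -4.54 (edgeR adjusted p 0.00088, SE 0.65). The lowest of these rests on 2 counts, in the quiescent control library of experiment 5, and the other 2 libraries held 14 and 31 counts. The spread of the share that remained, 3.68% ± 2.56 (SD, n = 3), follows that library.

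The members fell with quiescence in knockdown cells as well, with 10 of 10 lower in quiescent than in proliferating knockdown (10.8% of genes tested were called lower in this comparison). The log2 fold changes ran from -3.17 for Cdc6 to -1.36 for Mcm7, with a median of -2.41, and the largest adjusted p by edgeR was 0.00472. All 10 calls in each hairpin held under every other setting and every left-out library. The share of the proliferating level that remained was 13.0% ± 2.54 (SD, n = 3) for Mcm5 and 32.3% ± 6.61 (SD, n = 3) for Mcm2. For Mcm3 it was 16.0% ± 4.94 (SD, n = 3), for Cdc6 11.2% ± 4.12 (SD, n = 3), for Mcm10 11.2% ± 3.28 (SD, n = 3) and for Gmnn 24.8% ± 6.66 (SD, n = 3).

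**Figure D2:**
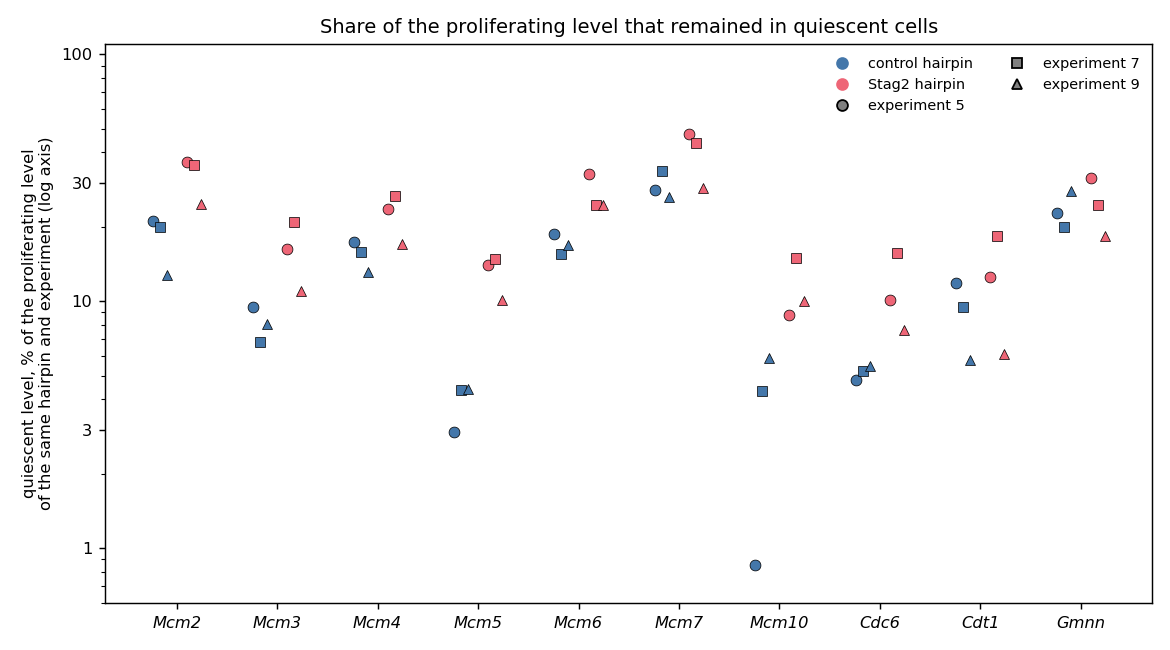
Quiescent level as a percentage of the proliferating level of the same hairpin and experiment (log axis) for each gene, with a color for each hairpin and a symbol for each experiment. For Mcm5 the control values lie between 2.95% and 4.41% and the knockdown values between 10.1% and 14.8%, while for Gmnn the values of the hairpins overlap.

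The subunit transcripts were near balance in proliferating cells and out of balance in quiescent cells. The ring holds each subunit once, so levels were set per kb of exon, from GENCODE M21 lengths. In proliferating control the order was Mcm7 at 62.9 ± 6.80, Mcm2 at 47.1 ± 11.2, Mcm3 at 43.3 ± 7.41, Mcm4 at 42.9 ± 2.54, Mcm5 at 37.3 ± 6.03 and Mcm6 at 37.1 ± 7.22 CPM per kb (SD, n = 3 each). Neighbours in this order overlapped in their libraries. The highest subunit exceeded the lowest 1.84-fold ± 0.447 (SD, n = 3) in proliferating control and 1.99-fold ± 0.353 (SD, n = 3) in proliferating knockdown.

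In quiescent control this ratio was 13.1-fold ± 3.21 (SD, n = 3). Mcm7 was the highest and Mcm5 the lowest subunit in each of the quiescent libraries of both hairpins. Mcm7 made up 23.3% ± 1.66 (SD, n = 3) of the summed subunit level in proliferating control and 41.4% ± 3.06 (SD, n = 3) in quiescent control, whereas Mcm5 went from 13.8% ± 1.04 (SD, n = 3) to 3.31% ± 0.903 (SD, n = 3) and Mcm3 from 15.9% ± 1.08 (SD, n = 3) to 7.85% ± 0.829 (SD, n = 3). Mcm2, Mcm4 and Mcm6 shares were 17.3%, 15.9% and 13.8% in proliferating control and 18.3%, 14.9% and 14.2% in quiescent control, with overlapping libraries. Quiescent knockdown lay between, with a ratio of 5.91-fold ± 0.676 (SD, n = 3), an Mcm5 share of 6.40% ± 0.621 (SD, n = 3) and an Mcm7 share of 37.5% ± 1.02 (SD, n = 3). The ratio ran from 5.13 to 6.33 there and from 11.0 to 16.8 in quiescent control, without overlap. The Mcm7 overlap with its neighbours bears on these shares as well.

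**Figure D3:**
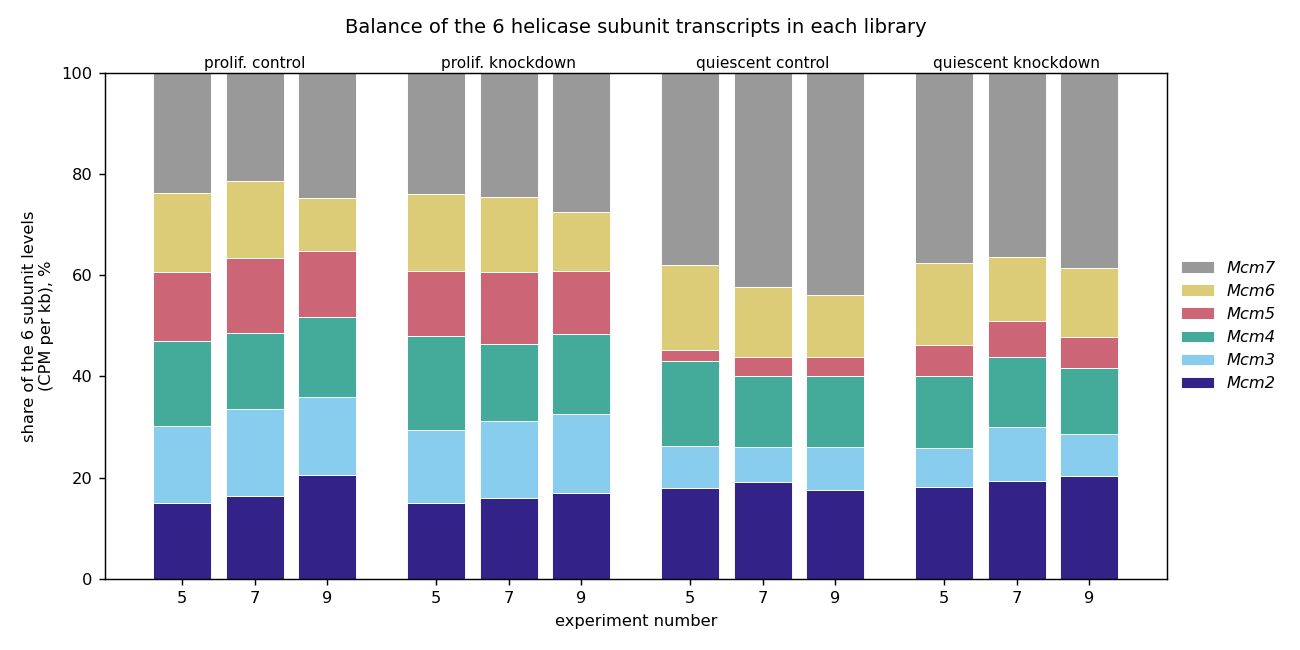
Share of each subunit in the summed level of Mcm2 to Mcm7 (CPM per kb of exon, bars add to 100%) in each of the 12 libraries, grouped by state and hairpin. The Mcm5 band is 12.4% to 14.9% in proliferating libraries, 2.26% to 3.83% in quiescent control and 6.01% to 7.12% in quiescent knockdown.

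The members differed in how closely they followed one another over the 12 libraries. The measure was the root mean square difference between a gene's log2 CPM and the mean of the 6 subunits, each centred on its own mean. Mcm4 lay nearest to the subunit mean at 0.15, with Mcm6 and Mcm2 next at 0.26 and 0.27, Mcm3 at 0.33 and Mcm7 at 0.51. Gmnn followed at 0.59, Cdc6 at 0.60, Cdt1 at 0.62, Mcm5 at 0.72 and Mcm10 farthest at 1.03. The subunit mean includes each subunit's own values, which draws the subunits, but not the other genes, toward it. Among 10291 genes ranked, the 5 nearest outside the members were Cenpn at 0.16, Prim1 and Hells at 0.20 each, Ung at 0.20 and Chaf1a at 0.21. Prim1 is a subunit of the DNA primase, Chaf1a a subunit of the histone chaperone that follows the replication fork, Hells a chromatin remodeller, Ung the uracil DNA glycosylase and Cenpn a centromere protein. Chaf1a, for example, stood at 52.3 CPM ± 4.30 (SD, n = 3), 48.9 CPM ± 6.57 (SD, n = 3), 8.54 CPM ± 1.65 (SD, n = 3) and 14.1 CPM ± 2.28 (SD, n = 3) in proliferating control, proliferating knockdown, quiescent control and quiescent knockdown. These 12 libraries share 4 conditions, so they are not independent points, and the likeness is a description.

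A list of 35 other licensing and firing genes was read beside the members, and 33 had enough counts; Gmnc and Mcidas, relatives of geminin, did not. In control cells 24 of the 33 fell with quiescence and 0 rose, where 11.7% of all genes tested were called lower. The median log2 fold change of the 33 was -1.10. With the experiment as a block 25 fell, where 18.5% of all genes tested were called lower. By role, without the block, all 14 of the helicase activation genes fell, 4 of 7 origin recognition genes, 4 of 9 genes that control licensing, and 2 of 3 relatives. Ticrr, which brings Cdc45 to the loaded ring, fell by 4.71 on the log2 scale (edgeR adjusted p 0.00036, SE 0.57). Dtl, the substrate receptor of the CUL4 ubiquitin ligase that destroys Cdt1 on chromatin, had a log2 fold change of -3.91 (edgeR adjusted p 6.2e-06, SE 0.23). Recql4, a helicase needed for initiation, had -3.82 (edgeR adjusted p 0.0022, SE 0.64). In the origin recognition complex, Orc1 fell by 2.90 and Orc6 by 1.60, while Orc3, Orc4 and Orc5 had log2 fold changes of -0.15, -0.21 and -0.41 that did not pass. With the block Orc5 passed, at an edgeR adjusted p of 0.027.

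In knockdown cells 19 of the 33 fell with quiescence and 0 rose, against 10.8% of all genes tested called lower. With the experiment as a block 24 fell, against 17.2% of all genes tested. Fbxo5, an inhibitor of the ubiquitin ligase that destroys geminin, fell by 3.10 (edgeR adjusted p 0.0005, SE 0.36), Ticrr by 2.92 (edgeR adjusted p 0.0031, SE 0.51) and Recql4 by 2.56 (edgeR adjusted p 0.015, SE 0.61) on the log2 scale. Recql4 lost its call without any 1 of 3 libraries: proliferating knockdown of experiment 9 (-2.22, edgeR adjusted p 0.0509), quiescent knockdown of experiment 5 (-2.37, edgeR adjusted p 0.0661) and quiescent knockdown of experiment 9 (-2.47, edgeR adjusted p 0.0631).

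**Figure D4:**
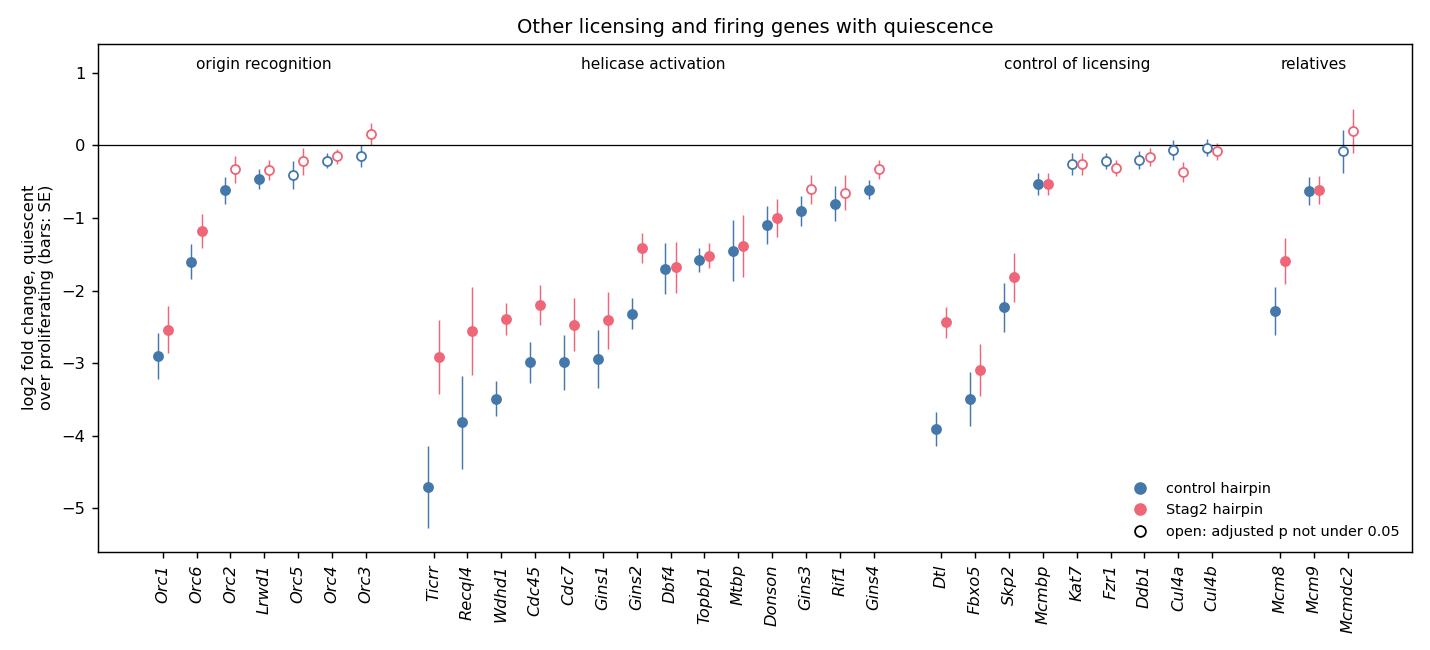
Log2 fold change of quiescent over proliferating cells for 33 other licensing and firing genes, by role, in cells with the control hairpin and with the Stag2 hairpin; bars are SE, and open circles did not pass the adjusted threshold of 0.05. All 14 activation genes are filled for the control hairpin, while the origin recognition genes other than Orc1 and Orc6 lie between -0.62 and 0.16.

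In quiescent cells the knockdown raised Mcm5, the only member past the threshold. Its level was 3.24, 6.61 and 5.55 CPM in quiescent control and 12.7, 19.3 and 11.7 CPM in quiescent knockdown, with all knockdown libraries above all controls. The log2 fold change was 1.50 (edgeR adjusted p 0.045, SE 0.27), 2.82-fold higher, and in experiments 5, 7 and 9 taken alone it was 1.94, 1.53 and 1.06. The quiescent knockdown level, 14.6 CPM ± 4.15 (SD, n = 3), was still far below the 112 CPM ± 20.1 (SD, n = 3) of proliferating knockdown. Over all genes tested, 0.153% of genes were called higher in this comparison.

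Libraries of the same experiment deviated together, so a fit with the experiment as a replicate block was set beside this result. With it 3 members rose, where 1.59% of genes were called higher: Mcm5 (log2 fold change 1.51, edgeR adjusted p 0.0026), Mcm6 (0.54, adjusted p 0.032) and Mcm3 (0.74, adjusted p 0.049). Without the block Mcm6 had an edgeR adjusted p of 0.28 and Mcm3 of 0.21. Without the block Mcm5 stayed past the threshold in 1 of 12 fits that left out a library, the one without proliferating knockdown of experiment 5, and its adjusted p ran from 0.0456 to 0.155; with the block it stayed in all 12. A fit to the quiescent libraries alone ended the call as well (log2 fold change 1.48, edgeR adjusted p 0.11). Under the block Mcm6 passed in 5 of these 12 fits and Mcm3 in 1 of 12, and Mcm2 and Cdc6 passed in 1 of 12 each.

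The other subunits had smaller positive values. Mcm6 stood at 30.3, 30.3 and 22.1 CPM in quiescent control and 43.8, 42.9 and 33.2 CPM in quiescent knockdown, with log2 differences of 0.53, 0.50 and 0.58 in experiments 5, 7 and 9. Mcm2 stood at 37.4, 51.2 and 37.9 CPM in quiescent knockdown, against 25.2, 32.3 and 24.9 CPM in quiescent control. Its 3 log2 differences, 0.57, 0.66 and 0.61, were about as even, while its log2 fold change of 0.62 had an edgeR adjusted p of 0.27 and 0.057 with the block. For Mcm3 experiment 7 stood apart, with 25.5 CPM in the knockdown library against 14.4 and 14.1 CPM in experiments 5 and 9. Mcm4, at 31.5, 39.1 and 26.0 CPM in quiescent knockdown, had a log2 fold change of 0.44 (edgeR adjusted p 0.24, SE 0.15). Mcm7, at 68.3, 84.9 and 63.3 CPM, had 0.40 (edgeR adjusted p 0.41, SE 0.18). For each of the 6 subunits every quiescent knockdown library lay above every quiescent control library.

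The loading factors had values of opposite sign. Cdc6 stood at 4.44, 7.10 and 3.69 CPM in quiescent knockdown, above all quiescent controls, with a log2 fold change of 0.85 (edgeR adjusted p 0.12, SE 0.21, and 0.052 with the block); DESeq2 called it, at an adjusted p of 0.019. Cdt1 stood at 3.99, 5.96 and 2.40 CPM, overlapping the controls, with a log2 fold change of -0.29 (edgeR adjusted p 0.77, SE 0.29). Gmnn, at 4.85, 5.19 and 7.03 CPM, overlapped them as well, with -0.26 (edgeR adjusted p 0.86, SE 0.39). Cdt1 and Gmnn thus had no detectable difference at this number of libraries. Mcm10 stood at 1.13, 2.92 and 2.81 CPM against 0.138, 0.857 and 1.85 CPM, with overlap, a log2 fold change of 1.23 (edgeR adjusted p 0.49, SE 0.63). In experiment 5 it had 25 counts in knockdown against 2 in control, a ratio of 8.21 with a 95% counting interval of 2.05 to 71.5, which covers sampling only.

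Counted together, 8 of 10 members were higher in knockdown in all 3 experiments, against 25.4% of genes tested, and for 7 of 10 the groups did not overlap in that direction, against 10.2% of genes tested. The members' median log2 fold change was 0.58, beside 0.02 over all genes tested. The medians in experiments 5, 7 and 9 were 0.54, 0.66 and 0.36. Mki67, a marker of cycling cells, stood at 0.552, 6.24 and 7.93 CPM in quiescent control and 5.49, 33.6 and 17.6 CPM in quiescent knockdown. Its log2 fold change was 1.92 (edgeR adjusted p 0.31, SE 0.72, and 0.071 with the block), and the groups overlapped. Within experiments 5, 7 and 9 knockdown was higher each time, by 3.07, 2.41 and 1.14 on the log2 scale. Pcna, the sliding clamp of the replication fork, had 61.4 CPM ± 9.66 (SD, n = 3) in control against 56.0 CPM ± 6.80 (SD, n = 3) in knockdown, and its log2 fold change was -0.13. The summed urothelial and immune marker levels were also higher in all quiescent knockdown libraries than in the quiescent controls, as given above. Within the urothelial list Krt8, Krt18 and Krt19 had the largest rises in CPM, while Cdh1, Epcam, Gata3 and Foxa1 had lower means in quiescent knockdown. In proportion some genes at low levels rose more, such as Upk3b (2.035 to 5.336 CPM) and Krt5 (0.8415 to 1.694 CPM). Upk1a did not, at 2.547 and 2.554 CPM. Cdh1 went from 1921 to 1303 CPM. In the immune list Csf1r rose, while Cd68 went from 5.56 to 4.75 CPM. The part of these cycle and cell type markers in the members' values was not tested.

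**Figure D5:**
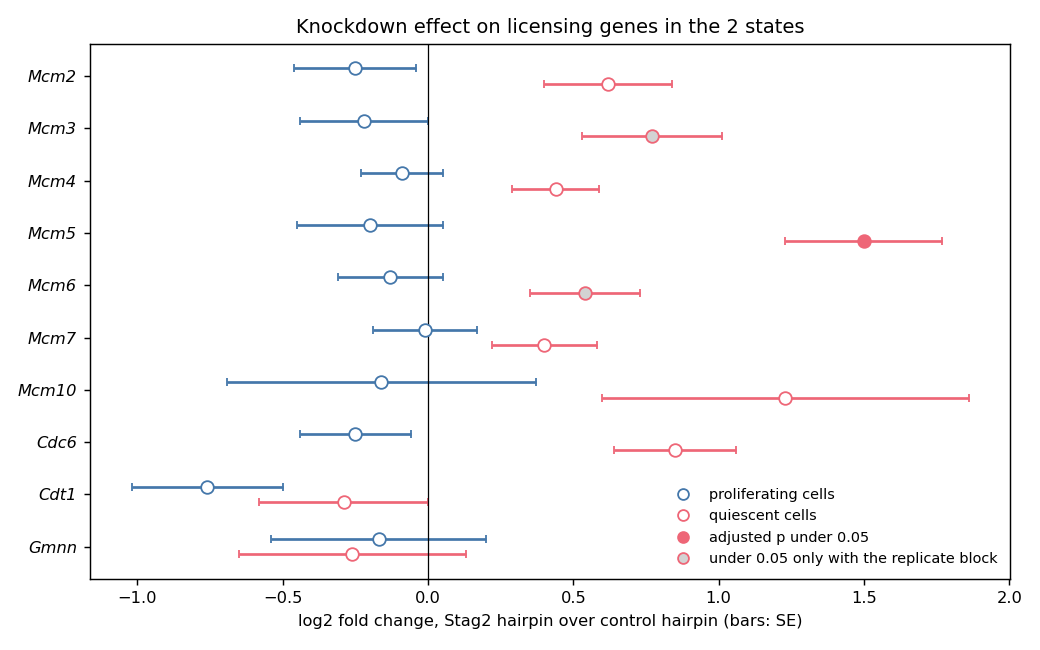
Log2 fold change of the Stag2 hairpin over the control hairpin for each gene in proliferating and in quiescent cells, with SE bars; the filled circle has an adjusted p under 0.05 and gray circles pass only with the replicate block. In proliferating cells all 10 values lie between -0.76 and -0.01, and in quiescent cells 8 of the 10 lie between 0.40 and 1.50.

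Over all 12406 genes tested, 19 were called higher and 35 lower with knockdown in quiescent cells. Of the 33 other licensing and firing genes, 1 rose and 0 fell in this comparison, with a median log2 fold change of 0.12. The gene was Dtl, which went from 2.14, 2.45 and 2.44 CPM to 4.80, 8.47 and 4.98 CPM, a log2 fold change of 1.37 (edgeR adjusted p 0.03, SE 0.22). It lost its call in 6 of 12 fits that left out a library, namely those without any 1 of the 3 quiescent controls, without experiment 7 of proliferating control or proliferating knockdown, or without quiescent knockdown of experiment 9; its adjusted p ran from 0.0242 to 0.14. It was also lost in a fit to the quiescent libraries alone (edgeR adjusted p 0.13). With the block 2 of the listed genes rose and 1 fell, where 197 of all 12406 genes tested were called higher and 243 lower. Wdhd1, which links the helicase to DNA polymerase alpha, stood at 2.83, 3.00 and 1.97 CPM in quiescent control and 3.99, 6.68 and 5.04 CPM in quiescent knockdown, a blocked log2 fold change of 1.00 (edgeR adjusted p 0.018, and 0.094 without the block; DESeq2 adjusted p 0.0073). Cul4a, the scaffold of the ligase that Dtl serves, stood at 172, 186 and 159 CPM in quiescent control and 103, 128 and 97.4 CPM in quiescent knockdown, a blocked log2 fold change of -0.66 (edgeR adjusted p 0.013, and 0.072 without the block; DESeq2 adjusted p 0.00072).

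In proliferating cells no member passed the threshold: 0 of 10 were called, and 0.0242% of genes were called lower. All 10 log2 fold changes were negative, with a median of -0.19 beside -0.002 over all genes tested. How many of all genes had a negative value was not counted. At an unadjusted p under 0.05 there was 1 of 10 members with edgeR, Cdt1, against 228 of the 12406 genes tested. With DESeq2 0 members had an adjusted p under 0.05. Cdt1 stood at 47.9, 54.8 and 73.0 CPM in proliferating control and 31.9, 32.5 and 39.5 CPM in proliferating knockdown, without overlap, a log2 fold change of -0.76 (edgeR unadjusted p 0.014, adjusted p 1.00, SE 0.26). Cdc6 did not overlap either, at 43.8, 45.2 and 48.3 CPM in knockdown against 53.4 to 56.1 CPM in control, with a log2 fold change of -0.25 (SE 0.19). These 2 of 10 compare with 2.65% of genes tested whose knockdown libraries all lay below the controls.

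The subunits had log2 fold changes from -0.25 to -0.01. Mcm2 stood at 102, 144 and 153 CPM in proliferating knockdown, Mcm3 at 88.8, 122 and 128 CPM, Mcm4 at 133, 146 and 153 CPM and Mcm5 at 90.6, 130.3 and 115 CPM, each lower than the control of the same experiment in all 3. Mcm6, at 134, 175 and 136 CPM, and Mcm7, at 144, 193 and 220 CPM (log2 fold changes -0.13 and -0.01), were not. In all, 7 of 10 members were lower in all 3 experiments, against 21.3% of genes tested. Mcm10, at 12.9, 19.5 and 28.2 CPM, was among the 7, and Gmnn, at 15.3, 21.3 and 38.3 CPM, was not. None of the 33 other genes passed the threshold in proliferating cells, with 0 calls by edgeR with or without the block.

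The interaction tests whether the knockdown effect differed between quiescent and proliferating cells. No member passed it, and 0% of the genes tested did: 0 of 10 members were called by edgeR with or without the block, 6 of 10 had an unadjusted p under 0.05 against 1.77% of genes tested (8 of 10 with the block, against 4.76%), and DESeq2 called 1, Mcm5, at an adjusted p of 0.043. For Mcm5 the difference was 1.70 on the log2 scale (edgeR unadjusted p 0.00065, adjusted p 1.00, SE 0.37, and 0.079 with the block), with values of 2.22, 1.75 and 1.18 in experiments 5, 7 and 9. Cdc6 had the next lowest p, with a difference of 1.10 (edgeR unadjusted p 0.0023, SE 0.28). The difference was positive for 9 of 10 members, and in all 3 experiments for the same number, against 16.4% of genes tested. Gmnn was the member outside both counts, with 0.47, 0.28 and -0.60. In 6 of 10 members the knockdown libraries were lower in all 3 proliferating and higher in all 3 quiescent comparisons, against 1.66% of genes tested. Over all genes tested, edgeR gave 219 at an unadjusted p under 0.05 and 590 with the block, and DESeq2 called 6.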

How the data were processed

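The study deposited 1 table of raw counts, whole numbers of reads per gene symbol in 12 libraries of polyadenylated RNA, not normalized. Per the submitters' processing notes, the tools were Bowtie, TopHat, HTSeq and DESeq2 with the mm10 build; versions, annotation and strand setting are not given in the sources used here. The kit was stranded and ERCC RNA was added, per the labels' protocols, but the table as used holds 0 ERCC rows, so levels are relative to total counts. Totals were 14524429 to 21987539 counts; the columns of no sample numbered 0.

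The tests used edgeR 4.0.16 in R 4.3.3. Genes passed filterByExpr (minimum count 10), libraries scaled by TMM, and 4 group means fitted to all 12 libraries (glmQLFit, glmQLFTest). There were 5 contrasts, each with Benjamini-Hochberg adjustment over 12406 genes and a threshold of 0.05. SE is the size of the log2 fold change divided by the square root of its F statistic. Log2 CPM used a prior count of 2. The code was tested on simulated counts. Pairs of replicates differed by far more than sampling noise (chi-square per degree of freedom 38.3 to 104). Nothing in the labels says that the replicates are separate cultures beyond their experiment number, so p-values measure the spread between these samples.

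The experiment number pairs libraries across groups: the labels give all 4 libraries of an experiment 1 shared batch. Deviations from group means correlated at 0.53 on average within experiments (0.23 to 0.79, 18 pairs) and at -0.26 between them (36 pairs). Centring each group on its own mean ties these averages together, so the negative one is no separate sign of pairing. The fit with the experiment as a block was therefore an alternative, together with median-of-ratios size factors, library totals, the DESeq2 1.42.0 Wald test, no filter, a minimum mean count of 50, a fit to the libraries of a contrast alone, and leaving out each library; leaving out libraries under the block was added after seeing the data.

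Named genes were Stag2, the 10 members, up to 3 listed pathway genes each way past the threshold per contrast (for the knockdown in quiescent cells and the interaction also with the block), and the 5 genes most like the subunit mean with mean log2 CPM of at least 2. Orc1, Orc3, Orc4, Orc5, Orc6 and the cell-cycle genes were named after their values were seen. The members and lists were chosen with earlier results of these data known. Ticrr, Kat7, Mcmdc2, Gmnc and Mcidas were found under older symbols. Exon lengths and gene coordinates came from GENCODE M21 (GRCm38), promoters from RefSeq (GRCm38.p6).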

Additional observations from a re-analysis of the deposited data

Results flagged for a closer look

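For 6 of the 10 members the knockdown level was below control in all 3 proliferating comparisons and above control in all 3 quiescent comparisons, a pattern seen in 1.66% of the genes tested. These were Mcm5, with an interaction of 1.70 on the log2 scale, Mcm10 with 1.38, Cdc6 with 1.10, Mcm3 with 0.99, Mcm2 with 0.87 and Mcm4 with 0.54. The test of the difference itself did not pass for any of them with edgeR (adjusted p 0.9997), while DESeq2 gave Mcm5 an adjusted p of 0.043. The proliferating side of the pattern is small, from -0.25 to -0.09 on the log2 scale over these 6 genes.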

How the results depend on the processing

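The quiescence calls kept their direction and their side of the threshold for all 10 members, in both hairpins, under each of the 7 other settings and each of the 12 left-out libraries. The number of genes called over the whole table moved more. With the replicate block, calls were 440 for knockdown in quiescent cells (54 without), 4373 for quiescence in control cells (2481 without) and 4096 in knockdown cells (2279 without), and 3 members instead of 1 were called for knockdown in quiescent cells. Beyond the calls given in the report, the block changed no other member's call. DESeq2 called 12 genes for knockdown in proliferating cells (3 with edgeR), 390 for knockdown in quiescent cells, with 2 members, Mcm5 and Cdc6 (adjusted p 0.019), and 6 for the interaction, with 1 member. A fit to the libraries of a contrast alone called 1 gene for knockdown in proliferating cells, 0 members in quiescent cells (Mcm5 1.48, edgeR adjusted p 0.11) and 1582 genes for quiescence in control cells; it holds fewer samples. The cause of the other shifts was not tested.

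Leaving out 1 library at a time gave 1 to 3 genes for knockdown in proliferating cells, 5 to 64 in quiescent cells with 0 to 1 members (1 to 3 with the block), 1394 to 3078 for quiescence in control cells, 1186 to 2408 in knockdown cells and 0 for the interaction. Among the members, directions turned only for Mcm6, Mcm7, Mcm10 and Gmnn, in contrasts where they passed no test. For knockdown in proliferating cells Mcm7 was 0.03 with library totals, 0.00 with a mean count of at least 50 and 0.00 with the contrast's libraries alone, and over left-out libraries Mcm6 ran from -0.27 to 0.01, Mcm7 from -0.15 to 0.15, Mcm10 from -0.48 to 0.17 and Gmnn from -0.63 to 0.09. Gmnn ran from -0.46 to 0.18 for knockdown in quiescent cells, and its interaction was 0.03 with the block and ran from -0.36 to 0.35. Depth limits Mcm10 in quiescent control, at 2 to 31 counts a library; the lowest quiescent counts of the other members were 37 for Cdc6 and 41 for Cdt1.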

Other observations

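Ccne2, which encodes a cyclin that drives entry into S phase, was read as a cell-cycle reference beside the members. It stood at 0.414, 0.245 and 0.238 CPM in quiescent control and 2.22, 2.80 and 2.29 CPM in quiescent knockdown, without overlap. The log2 fold change was 3.01 (edgeR adjusted p 0.0053, SE 0.35). These control levels are near the floor, so the size of the change is uncertain. With the prior count of 2, the log2 differences in experiments 5, 7 and 9 were 2.14, 3.02 and 2.76. The related cyclin gene Ccne1 had 2.50 CPM ± 0.851 (SD, n = 3) in quiescent control against 3.55 CPM ± 1.33 (SD, n = 3) in quiescent knockdown, with a log2 fold change of 0.50 (edgeR adjusted p 0.62, SE 0.33). Ccna2, a cyclin of S and G2 phases, had 2.92 CPM ± 2.25 (SD, n = 3) against 6.63 CPM ± 5.64 (SD, n = 3), with a log2 fold change of 1.15 (edgeR adjusted p 0.62, SE 0.77).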
